A study of Mus musculus with 5 samples.

Results

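The miRNAs described here are 10 mature strands that mark epithelial cells: the 5 guide strands of the miR-200 family (mmu-miR-200a-3p, mmu-miR-200b-3p, mmu-miR-429-3p, mmu-miR-200c-3p and mmu-miR-141-3p), mmu-miR-203-3p, mmu-miR-375-3p, and the 3 guide strands of the miR-183 cluster (mmu-miR-183-5p, mmu-miR-96-5p and mmu-miR-182-5p). They were chosen by name, as a check of the mesenchymal identity of the vesicle source, and all 10 are among the 1966 miRNAs of the deposited count table. The prefix for mouse is left out below. The vesicles came from cultured mesenchymal stem cells (mMSC Bl6-GFP) of C57BL/6-GFP transgenic mice, a line shared by both groups. The cells were expanded in medium with serum, then held in reduced-serum medium for 48 h, and small vesicles were pelleted at 100000 g. One group was not freeze-dried (2 libraries, titled unmodified EVs) and is called undried below. The other was frozen in buffered saline (DPBS) with 25 mM trehalose, freeze-dried overnight and rehydrated in water (3 libraries), and is called dried. The labels describe buffers with and without trehalose and several storage temperatures for the vesicle stock, and do not say which the undried libraries had. Nothing read here tells the age or number of the mice, or whether each library had a culture of its own, and a p-value reflects only how these libraries vary, which may be technical.

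miRNAs are short RNAs that pair with messenger RNAs mainly through their seed (bases 2 to 8 from the 5′ end) and lower the output of those messengers. The miR-200 family keeps epithelial cells epithelial by repressing ZEB1 and ZEB2, transcription factors of mesenchymal cells that in turn repress the genes of the family. The family is known to be low in fibroblasts and other mesenchymal cells. miR-203 acts in keratinocyte differentiation, miR-375 in endocrine cells such as pancreatic islets, and the miR-183 cluster in sensory cells of the ear and eye as well as in many epithelia.

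The mature sequences are shown because they set which members can share targets and which could be mistaken for one another in counting. They are RefSeq sequences on build GRCm38.p6, 5′ to 3′, with the seed in capitals. Of the 10 members, 9 matched an entry by name.
miR-200a-3p: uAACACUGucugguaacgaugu
miR-141-3p: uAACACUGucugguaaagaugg
miR-200b-3p: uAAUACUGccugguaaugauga
miR-200c-3p: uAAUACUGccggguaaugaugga
miR-429-3p: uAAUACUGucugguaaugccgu
miR-203-3p: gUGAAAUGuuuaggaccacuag
miR-182-5p: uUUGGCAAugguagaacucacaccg
miR-96-5p: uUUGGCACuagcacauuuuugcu
miR-183-5p: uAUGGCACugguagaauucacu

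The miR-200 family has 2 seeds. miR-200a-3p and miR-141-3p share AACACUG, and miR-200b-3p, miR-200c-3p and miR-429-3p share AAUACUG. Between miR-200a-3p and miR-200b-3p the seeds differ by C4U, with positions counted from 1 at the 5′ end. The closest pairs of the family, miR-200a-3p with miR-141-3p and miR-200b-3p with miR-200c-3p, differ at 2 of 22 bases. The 3 strands of the miR-183 cluster have 3 seeds. miR-96-5p and miR-182-5p differ within the seed by C8A, and miR-182-5p and miR-183-5p by U2A and A8C, while 18 of 22 bases of the latter pair are identical. Among all mouse mature entries of the table, 1 other miRNA, miR-1271-5p, shares the seed of a member shown here, that of miR-96-5p. It had 0 counts in all 5 libraries. miR-375-3p matched no entry by name, so its seed was not searched.

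The members lie in 5 places of the genome (GENCODE M21, GRCm38). The miR-200b, miR-200a and miR-429 hairpins span 1846 bases at chr4:156053905-156055750, on the minus strand, within introns of Ttll10. The miR-429 hairpin also overlaps an exon of the non-coding Gm13648, and those of miR-200a and miR-200b lie in its introns. The miR-200c and miR-141 hairpins span 477 bases at chr6:124717914-124718390, on the minus strand, in an intron of the non-coding Gm15884. The miR-141 hairpin also overlaps an exon of Gm29008 on the same strand. The miR-183, miR-96 and miR-182 hairpins span 3820 bases at chr6:30165918-30169737, on the minus strand, and overlap no other annotated gene. The same holds for the miR-203 hairpin, at chr12:112130880-112130955 on the plus strand, and for the miR-375 hairpin, at chr1:74900658-74900721 on the minus strand.

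The shallowest library held 131507 miRNA counts and the deepest 2914305. The libraries with at least 500000 counts, called deep, are undried replicate 1 and dried replicates 1 and 2, and the other 2 are called shallow. Levels are given as CPM, counts scaled to a library total of 1000000, with exact binomial 95% intervals where a single library is meant. A count of 0 allows up to 3 counts, which is 1.03 CPM in the deepest library and 22.8 CPM in the shallowest. These intervals and limits cover counting error alone: the reads carry no stated molecular identifiers and need not be independent molecules. In pooled vesicles, fewer vesicles from a cell type and fewer copies per vesicle cannot be told apart.

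Of the 10 members, 3 were at 0 in every library, 4 had counts in some libraries and 3 had counts in all 5. The 3 at 0 were miR-429-3p, miR-200c-3p and miR-141-3p of the miR-200 family, so neither guide strand of the Mir200c and Mir141 locus had a count. The 3 found everywhere were miR-182-5p, miR-183-5p and miR-203-3p. The miR-183 cluster held between 89.4% and 95.7% of all member counts in each library. The list named for epithelium was therefore, in these vesicles, mostly miR-182-5p and miR-183-5p.

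**Figure D1:**
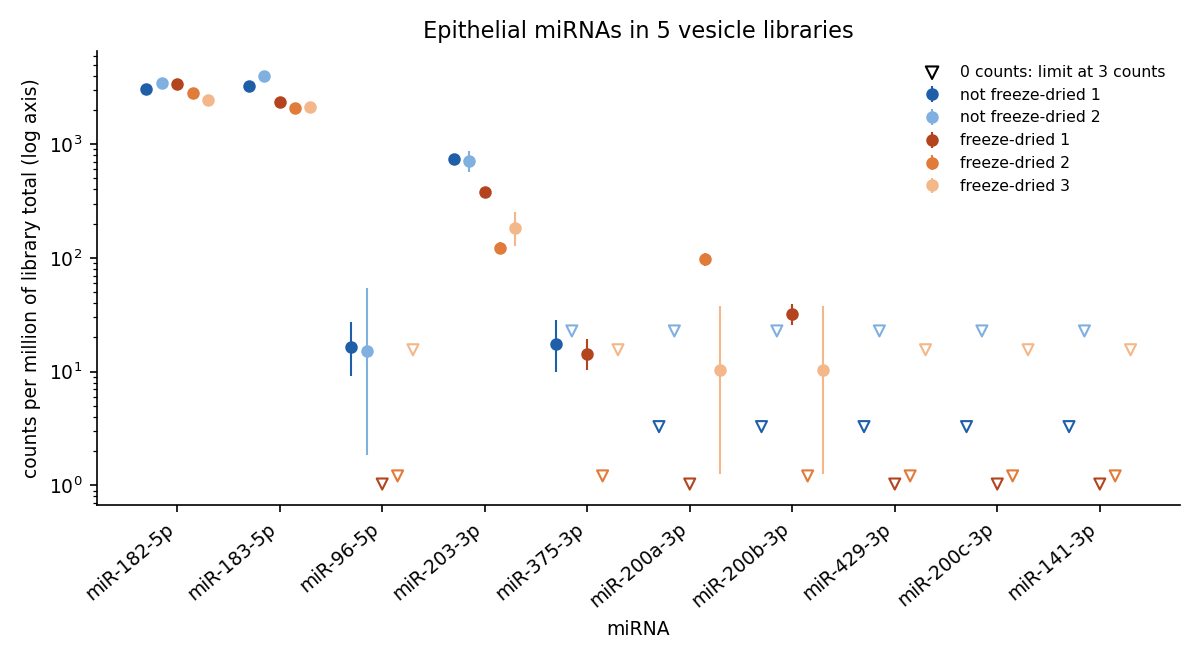
Levels in CPM (log axis) of the 10 epithelial miRNAs, 1 point per library with its exact binomial 95% interval, and open triangles at the limit that 0 counts allow. miR-182-5p and miR-183-5p lie at 2099 CPM or above in all 5 libraries, miR-203-3p between 123 and 736 CPM, and the others at 97.4 CPM or below.

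In the miR-200 family, the repressors of ZEB1 and ZEB2, counts appeared for 2 of 5 members and in dried libraries alone. miR-200a-3p had 0 and 0 counts in the undried replicates 1 and 2, and 0, 241 and 2 counts in the dried replicates 1, 2 and 3. miR-200b-3p had 0 and 0 counts in the undried libraries, and 93, 0 and 2 counts in the dried ones. These 2 hairpins lie side by side in 1 cluster, yet the deep library that held miR-200a-3p had 0 counts of miR-200b-3p, and the reverse. At the 97.4 CPM (interval 85.5 to 111) that miR-200a-3p reached in dried replicate 2, dried replicate 1 would have had 284 counts and undried replicate 1 would have had 88.9. At the 31.9 CPM (interval 25.8 to 39.1) that miR-200b-3p reached in dried replicate 1, dried replicate 2 would have had 78.9 counts and undried replicate 1 would have had 29.1. All of these numbers are well above the 3 counts that a count of 0 allows. For undried replicate 2 they are 12.8 and 4.2 counts.

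Such all-or-nothing counts were not particular to the miR-200 family. Of the 422 miRNAs with at least 10 counts in a deep library, 180 (42.7%) had 0 counts in another deep library. So did 126 of 361 (34.9%) at 50 counts, 32 of 239 (13.4%) at 200 counts and 0 of 121 at 1000 counts. With 3 counts put in for the pooled undried libraries, which had 0, miR-200a-3p was 15.1-fold higher and miR-200b-3p 5.92-fold higher in dried vesicles. The dried counts enter without their own counting error, so these folds are no strict lower bounds. Each value rests on 1 library. Without dried replicate 2 miR-200a-3p has 2 counts, and without dried replicate 1 miR-200b-3p has 2 counts, with no fold given in either case. Without undried replicate 1 miR-200a-3p is 1.91-fold higher and no fold can be given for miR-200b-3p. Neither passed the count filter of the main fit. In the 5 alternative fits that took them in, their adjusted p-values by edgeR ran from 0.79 to 0.90. The passenger strands miR-200a-5p, miR-200b-5p, miR-429-5p, miR-200c-5p and miR-141-5p had 0 counts in all libraries.

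miR-203-3p, the keratinocyte miRNA, was the third most abundant member. It had 671 and 93 counts in the undried libraries, which is 736 CPM (interval 681 to 793) and 707 CPM (interval 571 to 866). In the dried replicates 1, 2 and 3 it had 1109, 303 and 35 counts, which is 381 CPM (interval 358 to 404), 123 CPM (interval 109 to 137) and 181.9 CPM (interval 127 to 253). Both undried libraries were above all 3 dried ones, as for 9.79% of all 327 tested miRNAs, and the intervals of dried replicates 1 and 2 were far apart. The mean was 721 ± 20.1 CPM undried (SD, n = 2) and 228 ± 135 CPM dried (SD, n = 3). The fitted log2 fold change was -1.51 (SE 0.76, 95% interval -3.22 to 0.20), and the edgeR adjusted p of 0.98 left it uncalled. Leaving out 1 library kept this log2 fold change between -2.10 and -1.17. The passenger strand miR-203-5p was at 0 in every library.

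Markers of other cell types are set beside miR-203-3p here. The leukocyte list had counts for 2 of its 4 miRNAs, miR-150-5p and miR-223-3p, with both strands of miR-142a, a defining miRNA of blood cells, at 0. It took 0.0114% to 0.0278% of the counts in undried libraries and 0% to 0.00883% in dried ones, lower without overlap. Of all tested miRNAs taken singly, 9.79% were lower without overlap. The nearest shares rest on 15 counts in undried replicate 2 and 17 in dried replicate 3. Within the list, miR-223-3p did overlap, with 97 and 0 counts undried and 40, 0 and 16 dried. The 0% is a count of 0 in dried replicate 2, which allows up to 1.21 CPM. Endothelial miR-126a-3p and miR-126a-5p took 0.0160% to 0.0403% and 0.00623% to 0.0218%, which overlap. Red cell miRNAs took 0.0758% to 0.120% undried and 0.0922% to 0.170% dried. Hepatocyte miR-122-5p took 0.00912% to 0.0296% undried and 0.00946% to 0.0296% dried. Striated muscle miRNAs took 0.325% to 0.419% undried and 0.322% to 0.469% dried. Each of these lists overlaps between the groups as well. The part of these other cell types in the miR-203-3p values was not tested.

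miR-375-3p, the endocrine member, had 16 and 0 counts in the undried libraries and 42, 0 and 0 in the dried ones. It was thus seen in replicate 1 of each group, at 17.5 CPM (interval 10.0 to 28.5) and 14.4 CPM (interval 10.4 to 19.5). At the pooled level of these libraries, dried replicate 2 would have had 37.5 counts and had 0. In the shallow libraries 1.99 and 2.92 counts would be due, so their zeros do not set them apart. The edgeR log2 fold change was -0.64 (SE 2.87, interval -7.06 to 5.78), and its sign turned to 5.92 without undried replicate 1, which holds the counts of that group. miR-375-5p was at 0 throughout.

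The miR-183 cluster held the highest and one of the lowest members. miR-182-5p, cut from its last hairpin, had 2812 and 458 counts in the undried libraries, at 3083 CPM (interval 2970 to 3199) and 3483 CPM (interval 3171 to 3816). In the dried ones it had 9890, 7024 and 466 counts, at 3394 CPM (interval 3327 to 3461), 2840 CPM (interval 2774 to 2907) and 2421 CPM (interval 2207 to 2651). The groups overlapped, with means of 3283 ± 283 CPM undried (SD, n = 2) and 2885 ± 488 CPM dried (SD, n = 3).

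miR-183-5p, cut from the first hairpin of the cluster, had 2984 and 527 counts in the undried libraries, at 3272 CPM (interval 3155 to 3391) and 4007 CPM (interval 3673 to 4364). In the dried libraries it had 6890, 5190 and 411 counts, at 2364 CPM (interval 2309 to 2421), 2099 CPM (interval 2042 to 2156) and 2136 CPM (interval 1934 to 2352). The groups did not overlap, and the means were 3640 ± 520 CPM undried (SD, n = 2) and 2199 ± 144 CPM dried (SD, n = 3).

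In the fit, the log2 fold change was -0.07 for miR-182-5p (SE 0.32, 95% interval -0.78 to 0.65) and -0.61 for miR-183-5p (SE 0.32, interval -1.33 to 0.11), both with an edgeR adjusted p of 0.98. A p that misses the threshold does not show that the levels were alike. For miR-182-5p the interval runs from 0.58 to 1.57 times the undried level. The sign of miR-182-5p turned under 5 of 15 other analyses, with values up to 0.18 in the deep libraries, while that of miR-183-5p stayed negative in all 15. The groups do not overlap for miR-183-5p, which left its sign little room to turn in the same libraries.

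The ratio of these 2 strands of 1 cluster, chosen after the values were seen, did not overlap between the groups. There were 0.942 reads of miR-182-5p per read of miR-183-5p (interval 0.895 to 0.993) in undried replicate 1 and 0.869 (interval 0.765 to 0.987) in replicate 2. The dried replicates 1, 2 and 3 had 1.44 (interval 1.39 to 1.48), 1.35 (interval 1.31 to 1.40) and 1.13 (interval 0.991 to 1.30). All 3 dried libraries were above both others, and normalization and the length of the strands cancel in this comparison. The intervals of dried replicate 3 and undried replicate 1 overlap. miR-183-5p by itself did not overlap between the groups, as for 9.79% of all tested miRNAs lower, so the ratio partly restates it. How often the ratios of other pairs of strands separate the groups was not tested. The mean ratio was 0.906 ± 0.052 (SD, n = 2) against 1.31 ± 0.16 (SD, n = 3), a 1.44-fold difference. The exact two-sided permutation p was 0.20, the smallest that the form used gives for 2 libraries against 3. As the ratio was chosen after its values were seen, this p was fixed at its floor and tests nothing. The difference was 1.48-fold among the deep libraries (n = 1 undried and 2 dried) and 1.30-fold among the shallow ones (n = 1 each). As all 3 dried ratios lie above both undried ones, no split of the libraries could turn the direction.

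**Figure D2:**
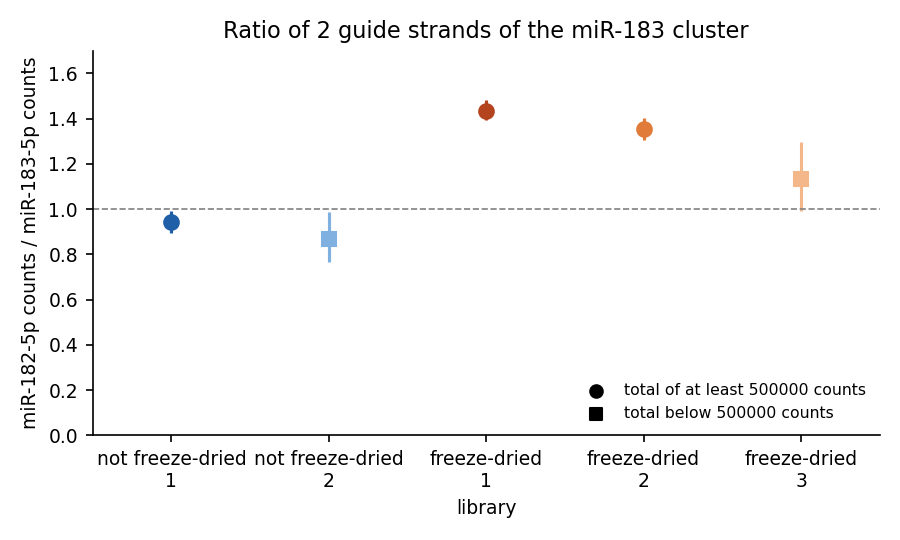
Counts of miR-182-5p divided by counts of miR-183-5p in each library, with exact binomial 95% intervals; circles are libraries of at least 500000 counts and squares are shallower ones. The not freeze-dried libraries lie at 0.942 and 0.869 and the freeze-dried ones from 1.13 to 1.44.

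miR-96-5p, from the hairpin that lies between those of miR-183 and miR-182, was far below its neighbours. It had 15 and 2 counts in the undried libraries, at 16.4 CPM (interval 9.20 to 27.1) and 15.2 CPM (interval 1.84 to 54.9), and 0 counts in all 3 dried libraries. This was 0.503% (interval 0.281 to 0.830) and 0.380% (interval 0.0458 to 1.38) of the miR-183-5p count in the undried libraries. In dried replicates 1 and 2 the limits for 0 counts were 0.0435% and 0.0578% of miR-183-5p, lower than those shares. At the pooled undried level of 16.3 CPM, dried replicates 1, 2 and 3 would have had 47.5, 40.3 and 3.13 counts, so the third adds little.

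With 3 counts put in for the pooled dried libraries, which had 0, miR-96-5p was 30.3-fold lower in dried vesicles. The undried counts enter without their own counting error, so this fold is no strict lower bound. Without dried replicate 1 it is 14.5-fold and without dried replicate 2 it is 16.9-fold. Without undried replicate 1 only 2 counts are left and no fold is given. With the spread between libraries included, the 95% interval of the miR-96-5p log2 fold change ran from -14.6 to -0.0064. In edgeR the unadjusted p was 0.050 and the adjusted p 0.98. The interval was derived from that test and from a fold change that depends on the prior count. Its upper end therefore only restates the unadjusted p. In all, 4 of the 253 miRNAs counted in both undried libraries were at 0 in all 3 dried ones. That tally takes in strands of every level. Of the 422 miRNAs with at least 10 counts in a deep library, 180 (42.7%) had 0 counts in another deep library.

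Of the passenger strands of the cluster, miR-183-3p alone had counts. It had 11 counts in undried replicate 2 and 9 in dried replicate 3, the shallow libraries, which is 2.09% (interval 1.04 to 3.77) and 2.19% (interval 0.994 to 4.198) of miR-183-5p. In the 3 deep libraries it had 0 counts, where the pooled shallow level of 61.7 CPM would have given 56.3, 179.9 and 153. It is 1 of 7 miRNAs with counts in both shallow libraries and none in the deep ones, and 1 of 2 with at least 9 counts in each. miR-182-3p and miR-96-3p had 0 counts in all 5 libraries.

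Across the whole table, edgeR called 0.0% of 327 tested miRNAs lower and 0.0% higher at an adjusted p under 0.05, and at an unadjusted p under 0.05 it had 9 miRNAs, DESeq2 16 and limma-voom 15. Of the 10 members, 5 passed the count filter and 0 were called. miR-96-5p passed it through its undried libraries. At an unadjusted p under 0.05 there was 1 member, miR-96-5p, on the lower side, beside 1.53% of all tested miRNAs lower, 1.22% higher and 2.75% in either direction. The groups did not overlap, on the lower side, for miR-203-3p, miR-183-5p and miR-96-5p, beside 9.79% of all tested miRNAs lower and 6.73% higher. The same 3 did not overlap with TMM-normalised values, beside 8.56% of all tested miRNAs lower and 8.87% higher, so over all miRNAs the balance of lower and higher turned with the scaling. The log2 fold change was below 0 for the 5 tested members and for 48.9% of all tested miRNAs, with medians of -0.64 and 0.015. The filter shaped this tally. It took in miR-96-5p through the group where it is high and left out miR-200a-3p and miR-200b-3p, which have counts in dried libraries alone and were fitted at 8.55 and 7.30 without the filter, values that depend on the prior count. Nothing about the 10 members as a set is read from it.

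**Figure D3:**
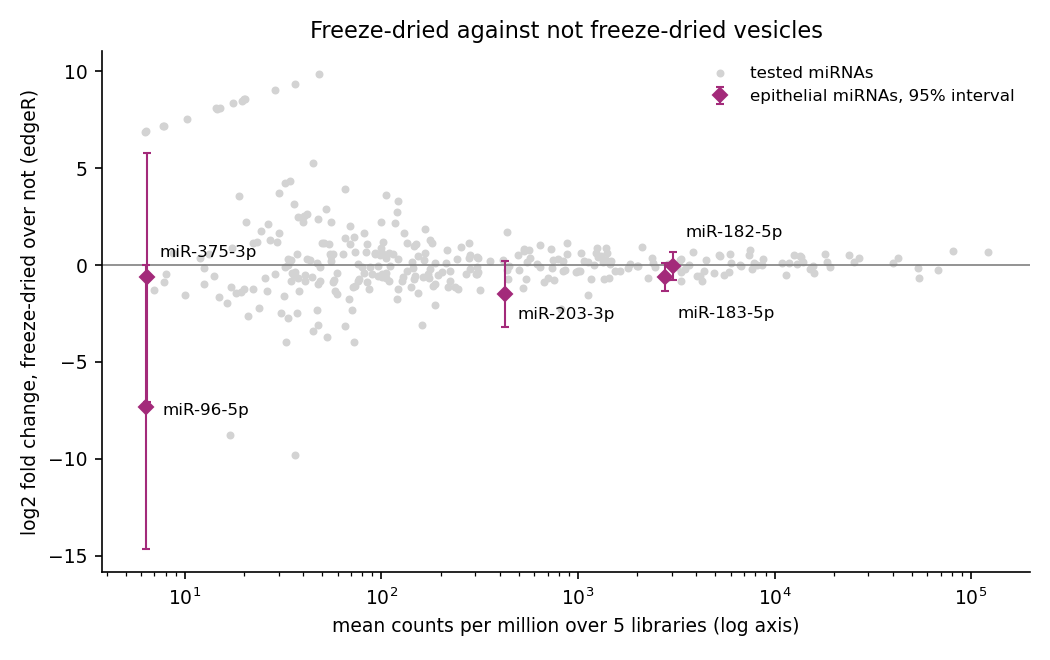
The edgeR log2 fold change of freeze-dried over not freeze-dried vesicles against mean CPM (log axis) for 327 tested miRNAs in grey, with the 5 tested epithelial miRNAs as diamonds with 95% intervals. The intervals of miR-182-5p, miR-183-5p, miR-203-3p and miR-375-3p include 0, and that of miR-96-5p, whose fitted value depends on a prior count, ends at -0.0064.

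Ordered by mean CPM over the 5 libraries, miR-182-5p was 55th and miR-183-5p 58th of the 517 miRNAs with a count. They stood at 3044 ± 432 and 2775 ± 837 CPM (SD, n = 5). In single libraries miR-182-5p ranked between 44 and 58, and miR-183-5p between 45 and 66. Their neighbours in this order, miR-125b-1-3p (3054 ± 595 CPM) above and miR-129-5p (2887 ± 983 CPM), miR-652-3p (2842 ± 1072 CPM) and miR-196b-5p (2456 ± 798 CPM) beside or below (SD, n = 5), did not differ from them beyond their spread. Divided by the length of the strand, the values are 122 CPM per base for miR-182-5p and 126 for miR-183-5p. The counts are reads per mature miRNA, so this division does not alter the order of abundance. miR-203-3p was 120th at 426 ± 287 CPM, between miR-1306-5p (434 ± 242) and miR-744-5p (418 ± 167; SD, n = 5), again within the spread. This mean joins groups that differ in level: miR-203-3p ranked 97 and 99 in the undried libraries, and 112, 169 and 164 in the dried ones. miR-200a-3p followed as 305th, miR-200b-3p as 380th, miR-375-3p as 405th and miR-96-5p as 407th, with means of 21.6, 8.46, 6.39 and 6.33 CPM that rest on 2 libraries each.

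By the shape of the profile over the 5 libraries, taken as the root mean square difference of centred log2(CPM + 1), the miRNAs nearest to miR-183-5p were miR-16-5p (0.063), miR-99b-5p (0.16) and miR-151-5p (0.21). Those nearest to miR-182-5p were miR-98-5p (0.11), miR-25-3p (0.11) and miR-28a-3p (0.13). Between miR-182-5p and miR-183-5p the difference was 0.28, which made miR-183-5p 21st of 326 in nearness to miR-182-5p. miR-203-3p had miR-664-3p (0.45), miR-669p-5p (0.46) and miR-3963 (0.68) nearest, against a median of 1.55 over the 326 compared.

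The labelled mesenchymal source was set beside 19 miRNAs abundant in fibroblasts, smooth muscle and other mesenchyme. The list was chosen with earlier results of these data known, so its counts are a description and no independent check. Whether these miRNAs are less abundant in other cell types was not tested, so their share does not by itself mark mesenchyme. All 19 had counts in all 5 libraries, and together they took 28.1% and 26.0% of the counts in undried libraries and 19.1% to 22.6% in dried ones. The 2 highest were miR-21a-5p, abundant in fibroblasts, at 68045 CPM on average, and miR-143-3p, of smooth muscle and fibroblasts, at 54246 CPM. Their ranks in single libraries were 2 to 5 and 3 to 6. miR-199a-3p and miR-214-3p, also on this list, ranked 29 to 50 and 18 to 34. Of the 19, 13 had a higher mean than miR-182-5p and 6 a lower one, the latter including miR-199a-5p, miR-152-3p and miR-10b-5p. Against miR-203-3p, 16 were higher and 3 lower, and by mean CPM all 19 were higher than each member of the miR-200 family.

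**Figure D4:**
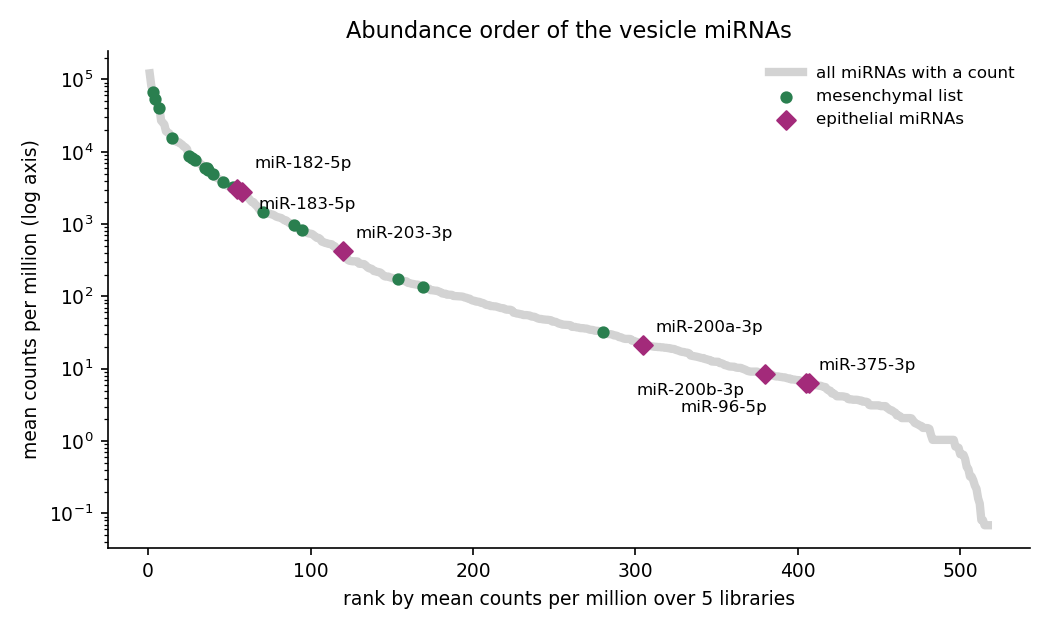
Mean CPM over 5 libraries (log axis) against rank for the 517 miRNAs with a count in grey, with the mesenchymal list as circles and the epithelial miRNAs with a count as diamonds. miR-182-5p and miR-183-5p, ranked 55 and 58, lie among the mesenchymal miRNAs, while miR-200a-3p, miR-200b-3p, miR-375-3p and miR-96-5p rank from 305 to 407.

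Summed, the 10 epithelial miRNAs took 0.712% and 0.821% of the counts in undried libraries and 0.618%, 0.516% and 0.476% in the dried ones. The means were 0.767% ± 0.077 (SD, n = 2) and 0.537% ± 0.074 (SD, n = 3), without overlap. The mesenchymal list was also lower without overlap, at 27.1% ± 1.5 (SD, n = 2) against 21.2% ± 1.9 (SD, n = 3), and both are shares of 1 total. Within a library there were 39.5 and 31.6 mesenchymal counts per epithelial count in the undried libraries, and 36.5, 42.7 and 40.05 in the dried ones, ranges that overlap. Without miR-182-5p and miR-183-5p, the other 8 members took 0.0770% and 0.0722% in undried libraries and 0.0427%, 0.0220% and 0.0203% in dried ones. This mostly restates miR-203-3p, which held 671 of 702 and 93 of 95 of these counts in the undried libraries, and 1109 of 1244, 303 of 544 and 35 of 39 in the dried ones. In dried replicate 2 the other 241 were miR-200a-3p. For that rest the mesenchymal counts per epithelial count were 366 and 359.7 undried, and 529.5, 1001 and 941 dried. Of the mesenchymal list's 19 tested members 0 were called, 7 were above 0 and 12 below in log2 fold change, and their median was -0.11.

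**Figure D5:**
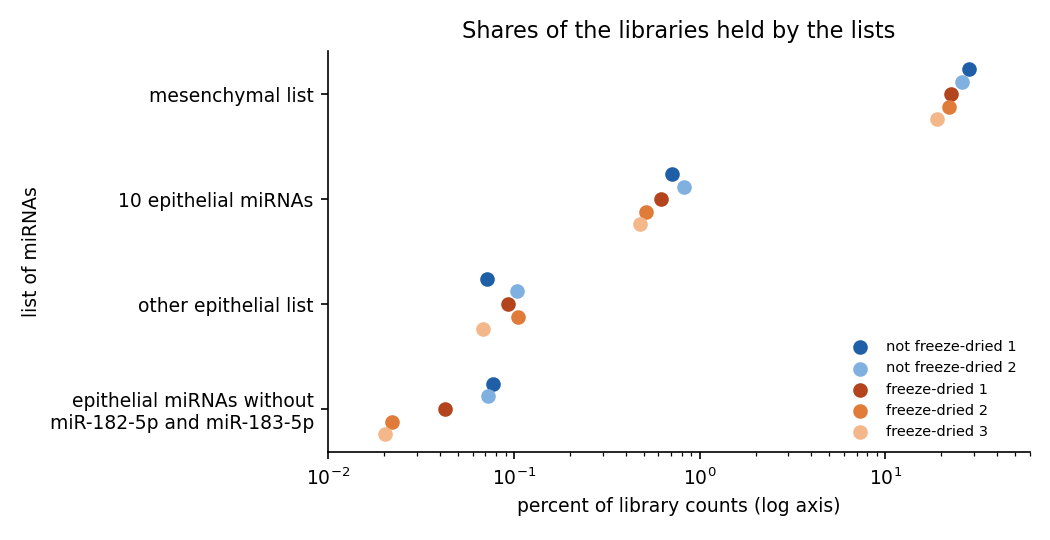
Percent of library counts (log axis) held by 4 lists of miRNAs, 1 point per library. The mesenchymal list lies between 19.1% and 28.1%, the 10 epithelial miRNAs between 0.476% and 0.821%, and the other epithelial list between 0.0681% and 0.104% with the groups mixed.

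A further 16 miRNAs of particular epithelia served as a wider list. Of these, 9 were at 0 in all libraries and 7 had counts, and 1, miR-34b-3p, had counts in all 5. The list took 0.0714% and 0.103% of undried and 0.0681% to 0.104% of dried counts, so the groups overlapped. miR-34b-3p, a p53 target that is also abundant in multiciliated cells, led it with 493 CPM on average and an edgeR log2 fold change of 0.52 (SE 0.66). miR-34c-5p, from the same transcript, was at 78.9 CPM in undried replicate 1, at 0 counts in undried replicate 2, and at 58.7, 57.0 and 15.6 CPM in the dried libraries. miR-449a-5p, miR-449b and miR-449c-5p, of multiciliated cells as well, were at 0. miR-192-5p, of gut, kidney and liver epithelium, had 0 and 72 counts in undried libraries and 702, 258 and 9 in dried ones (log2 fold change -1.003, SE 1.99). miR-194-5p had 0 and 22 counts in undried libraries and 0, 322 and 19 in dried ones (log2 fold change -0.095, SE 2.69). miR-184-3p had 82 and 0 counts in undried libraries and 115, 241 and 23 in dried ones (log2 fold change 1.08, SE 2.07). miR-205-5p, the marker of basal epithelium, had 24 counts in dried replicate 1 and 0 in the other 4 libraries. miR-216a-5p had 4 counts in undried replicate 2 and 0 elsewhere. miR-215-5p, miR-802-5p, miR-216b-5p, miR-217-5p, miR-203b-5p and miR-203b-3p were at 0. Of the 5 tested miRNAs of the wider list 0 were called, 3 were above 0 and 2 below in log2 fold change, and the median was 0.31.

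As the miR-183 cluster and miR-375 also belong to sensory and endocrine cells, 9 miRNAs of neural, sensory and endocrine cells were set beside them. This list took 0.614% and 0.346% of undried and 0.353% to 0.663% of dried counts, led by miR-129-5p and miR-128-3p at 2887 and 1389 CPM on average. miR-7a-5p, of endocrine and neural cells, had counts in all 5 libraries, at 775 and 403 CPM undried and at 433, 452 and 436 CPM dried. miR-7b-5p, miR-124-3p and miR-9-5p had counts in some libraries, up to 261, 185 and 166 CPM. The retinal and pigment cell miRNAs miR-204-5p and miR-211-5p had 1 count each, in dried replicate 3. The list holds miR-375-3p itself, and how far such cells bear on the miR-183 cluster was not tested. Striated muscle miRNAs took 0.322% to 0.469%, led by miR-1a-3p and miR-206-3p, red cell miRNAs 0.0758% to 0.170%, with miR-486a-5p ahead of miR-486b-5p, and hepatocyte miR-122-5p 0.00912% to 0.0296% over the 5 libraries.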

How the data were processed

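Small RNA from vesicles was sequenced in 5 libraries, and the authors deposited raw read counts per mature miRNA, with 1966 rows and 5 columns. Build GRCm38, featureCounts 1.5.0-p1, Bowtie 1.1.2, cutadapt 2.3, FastQC and bcl2fastq 2.20 are listed, without roles, per the submitters' processing notes. How reads with several matches, strand and duplicates were treated is not given in the sources used here, so near-identical members may share or lose reads. Of the rows, 517 had a count, and 0 named anything other than a miRNA.

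Groups follow the sample titles. The main test was the quasi-likelihood F test of edgeR 4.0.16 (R 4.3.3) after TMM normalization and filterByExpr, with Benjamini-Hochberg adjustment over all 327 tested miRNAs and a threshold of 0.05. CPM values use raw library totals. Permutation tests used scipy 1.17.1. The edgeR function alone was tested on simulated counts. Its recovery of set changes was required only at a dispersion that was not taken from these libraries. The alternatives tried were DESeq2 1.42.0, limma-voom 3.58.1, other normalizations, other filters, leaving out each library, a replicate block, a depth term and the deep libraries alone.

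The members and lists were chosen with earlier results of these data known. The miRNAs named were the members, their other strands, seed-mates, the 2 most abundant of each list, and for members with at least 10 counts in all libraries the 3 nearest profiles and the neighbours in level. Others named from the lists were chosen after their values were seen. Replicate numbers form only 2 pairs across the groups, with deviations correlated at 0.15 and -0.11, so they were not taken as pairs.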

Additional observations from a re-analysis of the deposited data

How the results depend on the processing

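Of the members, 0 were called by edgeR, DESeq2, limma-voom or any of the 15 alternatives run, with adjusted p-values between 0.79 and 0.999. Leaving out dried replicate 1 or 2 removed miR-96-5p and miR-375-3p from the test, and a mean of at least 10 counts or leaving out undried replicate 1 removed miR-96-5p. Over all miRNAs 0 were called higher under each alternative, and the count of 0 lower became 4 with the replicate block and 1 in the deep libraries only, none of them a member, with 0 to 0 without 1 library. The replicate block changed no call of a member. The log2 fold change of miR-182-5p turned to 0.072 with limma-voom, 0.011 with the replicate block, 0.18 in the deep libraries, 0.074 without undried replicate 2 and 0.076 without dried replicate 3, and ranged from -0.20 to 0.076 without 1 library. That of miR-375-3p turned to 5.92 without undried replicate 1 and ranged from -1.59 to 5.92 without 1 library. Those of miR-203-3p and miR-183-5p kept their sign in all 15, over -2.10 to -1.17 and -0.75 to -0.39. Their groups do not overlap and the alternatives reuse the same libraries, so there was little room for a turn. That of miR-96-5p, at 0 counts in every dried library, could not turn, and its range of -7.98 to -5.13 depends on the prior count. With library totals only, the median of all miRNAs shifted by -0.11.

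The difference in the summed share of the 10 members, -0.23 percentage points, ranged from -0.28 to -0.18 without 1 library. The log2 difference of the miR-182-5p to miR-183-5p ratio, 0.52, ranged from 0.45 to 0.62 without 1 library. It was 0.56 in deep and 0.38 in shallow libraries, both chosen after the data were seen. Neither the shares nor the ratios overlapped between the groups, so leaving out libraries could not turn either sign. At 10 counts instead of 1, dried replicate 3 had 3 members instead of 5 and undried replicate 2 had 3 instead of 4. The causes of these changes were not tested. In the shallow libraries a count of 0 allows up to 22.8 and 15.6 CPM, so the zeros of miR-375-3p in both, and of miR-96-5p in dried replicate 3, say little.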
